A study of Caenorhabditis elegans with 9 samples.

Results

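The major sperm protein (MSP) genes of the nematode Caenorhabditis elegans are the 35 annotated genes whose symbol is msp- followed by a number, out of 46926 genes counted. Of these 35 genes, 31 are annotated as protein-coding and 4, msp-37, msp-42, msp-52 and msp-71, as pseudogenes. A filter on low counts left 31 of them for testing, 29 coding genes and the pseudogenes msp-42 and msp-71, among 17512 tested genes in all. Messenger RNA came from whole synchronized young adults in 9 libraries, 3 for each of the genotype labels WT, UNC5 and PATR1. The design text names a wild type and the stop-codon allele unc-5(Cys348*), and it says nothing of a treatment. It does not say which mutant label carries that allele or what PATR1 stands for, and gives neither strain names nor the sex of the animals. Whether the 3 replicates of a label were grown apart is not stated, so a p-value here speaks of library-to-library spread alone, and that spread may be technical.

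MSP is the protein that moves nematode sperm. It assembles into filaments in the crawling pseudopod, in the place that actin has in other crawling cells, and is packed into fibrous bodies while the sperm are made. Sperm also release MSP, which binds the Eph receptor VAB-1 on oocytes and starts oocyte maturation and the contraction of the gonad sheath. In hermaphrodites sperm are made in the late larva, before the germline switches to oocytes, and msp messages are made in the spermatocytes. The family consists of many closely similar copies.

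All 35 genes have 1 exon, and 28 of the coding genes are 384 bases long, which is their coding length, as these annotated genes have no UTR. They lie on chromosomes II and IV of WBcel235. With a gap of 500 kb as the border they form 4 clusters, called here by chromosome and side. The left cluster of chromosome II, from 4785898 to 5200180, holds 12 members. The right cluster of chromosome II, from 5797065 to 5810330, holds 3. On chromosome IV the left cluster, from 5055631 to 5316906, holds 10 members and ends 179 kb from unc-5, and the right cluster, from 9689015 to 10144175, holds the other 10.

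The libraries held 38673206 to 60642199 reads counted to genes. A read that matches more than 1 locus is assigned to no gene, so near-identical msp copies can lose reads, and a single copy is less certain than the family. The share of such reads was 4.69% to 4.96% in the WT libraries, 3.57% to 3.63% in UNC5 and 3.12% to 3.16% in PATR1, and their part in the msp levels was not tested. The gene unc-5, which encodes a netrin receptor, had a WT level of 17.8 ± 0.968 CPM (mean ± SD, n = 3). It was lower in UNC5, at 10.1 ± 0.224 CPM, and in PATR1, at 13.5 ± 0.63 CPM. At an adjusted p below 0.05, 27% of all tested genes fell in UNC5 and 44.9% in PATR1. The unc-5 level therefore does not settle which label carries the allele. CPM stands for the count of a gene scaled to a common library size. Messages of sperm, oocyte, yolk and gonad sheath genes were all present in every group.

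As a family, the msp messages were about 3 times lower in UNC5 than in either other group. The summed level of all 35 genes was 1253, 1169 and 1145 CPM in the WT libraries, 373, 357 and 366 CPM in UNC5, and 1099.5, 1135 and 1091 CPM in PATR1. Every UNC5 library lay far below every other library, and all 3 PATR1 libraries lay below all 3 WT libraries by a small margin. The UNC5 mean was 30.7% and the PATR1 mean 93.2% of the WT mean. In these whole animals fewer sperm-forming cells and less msp RNA per cell cannot be told apart. In raw terms msp reads were 0.119% to 0.131% of all gene counts in WT, 0.0357% to 0.0378% in UNC5 and 0.105% to 0.108% in PATR1.

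**Figure D1:**
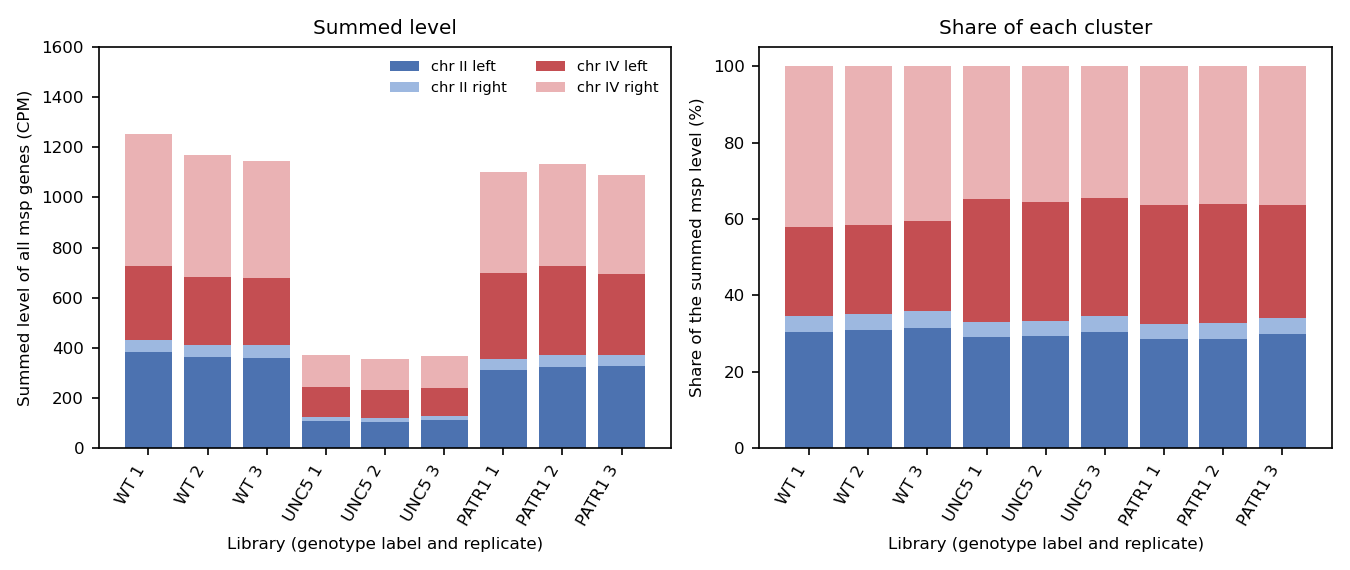
Summed CPM of all 35 msp genes in each of the 9 libraries (left) and the share of that sum from each of the 4 chromosome clusters in percent (right), with 1 bar per library. The UNC5 libraries stand at 357 to 373 CPM, and the left cluster of chromosome IV takes 23.4% to 23.5% of the sum in WT and 29.7% to 32.2% in the 6 other libraries.

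Single members differed widely in counted level. Reads that match several copies are not counted, and how far this shaped the order of the copies was not tested. Per kilobase of exon, the tested genes of WT ran from 3.07 CPM per kb in msp-63 to 221 CPM per kb in msp-36, 72.1 times as much, with a median of 82.6 CPM per kb. The 6 genes with the highest WT level gave 39.8% of the summed WT level, so no single copy dominated the counted reads of the family. In WT the highest were msp-36 (85.0 ± 8.7 CPM), msp-31 (83.8 ± 3.17 CPM), msp-81 (83.0 ± 5.25 CPM) and msp-59 (77.8 ± 6.03 CPM). These 4 genes have the same length, and the SDs of neighbours in this order overlap. In UNC5 and PATR1 the order changed at the top, where msp-59 came first, with 71.7 CPM per kb in UNC5 and 228 CPM per kb in PATR1, followed by msp-36 and msp-31 in both. The lowest tested genes were msp-63, msp-74 and the pseudogenes msp-42 and msp-71 in all 3 groups.

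**Figure D2:**
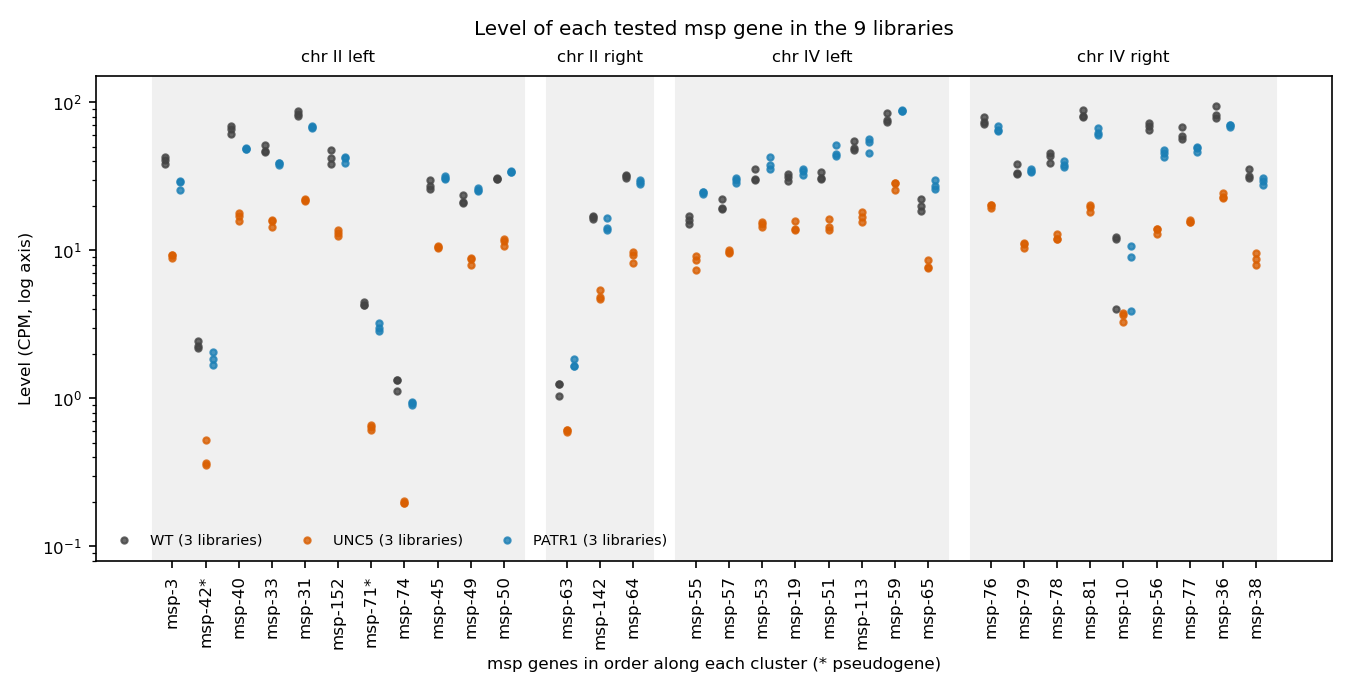
Level of each of the 31 tested msp genes in CPM on a log axis, with 1 point per library, coloured by genotype label, and the genes in their order along each cluster. All UNC5 points lie below the WT points of the same gene, whereas the PATR1 points lie above the WT points in most genes of the left cluster of chromosome IV and below them in most genes elsewhere.

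In UNC5, 30 of the 31 tested msp genes fell relative to WT at an adjusted p below 0.05, and none rose. Of the 30 genes, 28 fell more than 2-fold. Over all tested genes 27% fell, 49.8% rose and 13.7% fell more than 2-fold. The same was found at an unadjusted p below 0.05, with 31 lower and 0 higher, and with DESeq2, also 31 and 0. For all 31 genes the highest UNC5 library lay below the lowest WT library, as for 27.5% of all tested genes, while 50.4% of all tested genes were higher without overlap. The median log2 fold change of the msp genes was -1.70, beside 0.16 for all tested genes.

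The size of the fall differed from gene to gene, from -2.77 in msp-71 to -0.95 in msp-55. Among the genes at high level, msp-31 (WBGene00003429, chromosome II, 4916179 to 4916562, minus strand) had 87.2, 83.3 and 80.9 CPM in WT against 21.4, 21.9 and 22.1 CPM in UNC5. It kept 26.04% of its WT level (log2 fold change -1.94 ± 0.04 SE, adjusted p = 8.5e-29). msp-56 (WBGene00003449, chromosome IV, 9841540 to 9841923, plus strand) had 72.7, 69.3 and 65.4 CPM in WT and 13.9, 13.9 and 12.9 CPM in UNC5. With 19.6% of the WT mean left it had the largest fall among the members above 5 CPM (-2.35 ± 0.052, adjusted p = 5.2e-28). msp-81, which lies close to msp-56, kept 23.4% (-2.10 ± 0.052), msp-40 25.8% (-1.95 ± 0.049), msp-76 26.7% (-1.91 ± 0.048) and msp-36 27.5% (-1.86 ± 0.063). All 6 of these genes had UNC5 libraries far below every WT library.

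The 3 largest falls of all were in genes of low level. msp-71, a pseudogene, had 4.46, 4.30 and 4.30 CPM in WT and 0.611, 0.639 and 0.656 CPM in UNC5 (-2.77 ± 0.16, adjusted p = 4.1e-19). msp-74, a short coding copy, had 66 to 84 counts per WT library and 8 or 9 counts per UNC5 library (-2.65 ± 0.28, adjusted p = 2.9e-12). The pseudogene msp-42 went from 134 to 144 counts to 14 to 24 counts (-2.43 ± 0.2, adjusted p = 3.1e-14). Their SEs are several times those of the abundant copies.

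The smallest falls were in msp-55 and msp-63. msp-55 (WBGene00003448, chromosome IV, 5055631 to 5056014, minus strand) had 17.1, 16.1 and 15.2 CPM in WT and 9.12, 7.32 and 8.62 CPM in UNC5, which is 51.7% of the WT mean (-0.95 ± 0.066, adjusted p = 1.4e-14). msp-63, at 65 to 75 counts per WT library, kept 51.3% (-0.96 ± 0.18, adjusted p = 1.2e-05). Both stayed short of the 2-fold limit, with no overlap between the libraries of the groups. msp-10 was the 1 gene that did not pass, and is described further on.

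PATR1 differed from WT by far less, and the members went both ways. Of the 31 genes, 16 fell and 11 rose at an adjusted p below 0.05, and 4 did not pass, where 44.9% of all tested genes fell and 38.7% rose. The shares of the members that fell or rose were thus near those of all genes. DESeq2 gave 15 lower and 9 higher, without msp-42 (adjusted p = 0.063), msp-19 (0.24) and msp-45 (0.097). No member changed more than 2-fold by edgeR, at an unadjusted p below 0.05 or by DESeq2, whereas 10.5% of all tested genes fell and 6.02% rose more than 2-fold. The median of the members was -0.15 and that of all tested genes -0.11. Of the 31 genes 14 were lower and 10 higher without overlap between the libraries, as were 45.2% and 38.8% of all tested genes. With library sizes alone as the scaling, which moves the median of all genes to -0.23, 18 members fell and 7 rose.

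The genes that rose were 7 of the 8 tested members of the left cluster of chromosome IV, 3 neighbouring genes at the right end of the left cluster of chromosome II (msp-45, msp-49 and msp-50) and msp-63. msp-55 had 24.6, 24.9 and 24.0 CPM in PATR1, 152% of its WT mean and the largest rise (0.60 ± 0.055, adjusted p = 1e-11). msp-57, its neighbour, had 22.1, 19.2 and 18.9 CPM in WT and 29.9, 31.01 and 28.3 CPM in PATR1 (0.57 ± 0.052, adjusted p = 1.4e-11). msp-51 had 30.8, 33.6 and 30.3 CPM in WT and 43.3, 51.7 and 44.7 CPM in PATR1 (0.56 ± 0.066, adjusted p = 1e-06). In these 3 genes all PATR1 libraries lay above all WT libraries, and the PATR1 mean was 148% to 152% of the WT mean.

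The other rises were smaller. msp-63 rose to 146% of its WT mean, at 72 to 87 counts per PATR1 library (0.54 ± 0.14, adjusted p = 0.00055), and msp-65 to 137% (0.45 ± 0.059, adjusted p = 1.4e-07). msp-53 rose to 122% (0.28 ± 0.07, adjusted p = 0.0018) and msp-49 to 117% (0.23 ± 0.05, adjusted p = 9.0e-05). msp-59 (113%), msp-50 (112%), msp-45 (111%) and msp-19 (109%) rose least, and these 4 did not pass with library sizes alone (log2 fold changes of 0.05, 0.04, 0.03 and 0.00). For msp-19 the PATR1 and WT libraries overlapped. Its rise (0.13 ± 0.049, adjusted p = 0.019) did not pass without WT replicate 2 or 3 or PATR1 replicate 1 or 2 (adjusted p = 0.057 to 0.17), and that of msp-45 not without WT replicate 2 (adjusted p = 0.065).

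The falls in PATR1 were largest in msp-56, from 72.7, 69.3 and 65.4 CPM to 47.7, 45.6 and 42.9 CPM (65.6% of WT, -0.61 ± 0.043, adjusted p = 2.1e-14), and in msp-3, which kept 69.2% (-0.53 ± 0.049). msp-40 kept 74.0% (-0.43 ± 0.041), msp-81 75.8% (-0.40 ± 0.045), msp-31 81.5% (-0.30 ± 0.035), msp-36 81.7% (-0.29 ± 0.055) and msp-76 88.0% (-0.19 ± 0.041). In all of these genes every PATR1 library lay below every WT library. The low-level genes msp-71 (-0.52 ± 0.09, adjusted p = 3.5e-06), msp-74 (-0.45 ± 0.15, adjusted p = 0.0082) and msp-42 (-0.28 ± 0.12, adjusted p = 0.029) fell as well, the last not without WT replicate 1 or PATR1 replicate 1 or 2 (adjusted p = 0.062 to 0.13).

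In msp-79, msp-113 and msp-152 the PATR1 and WT libraries overlapped and the fit gave no difference past the threshold. msp-79 had 38.3, 32.6 and 33.1 CPM in WT and 33.7, 35.7 and 34.3 CPM in PATR1. msp-113 had 54.6, 49.1 and 47.3 CPM against 53.5, 56.9 and 45.4 CPM, and msp-152 47.3, 42.1 and 38.1 CPM against 38.7, 42.04 and 42.8 CPM. Their PATR1 means were 99.7%, 103% and 96.9% of WT (adjusted p = 0.93, 0.69 and 0.53), and the sign of each small difference turned when single libraries were left out. With library sizes alone msp-79 and msp-152 fell (adjusted p = 0.023 and 0.029), as they did with a filter of 5 CPM in 3 libraries (0.041 and 0.04). Without WT replicate 3 msp-152 fell (-0.13, adjusted p = 0.02), and without PATR1 replicate 3 msp-113 rose (adjusted p = 0.031). In UNC5 the same 3 genes fell to 31.3%, 33.5% and 30.8% of WT.

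**Figure D3:**
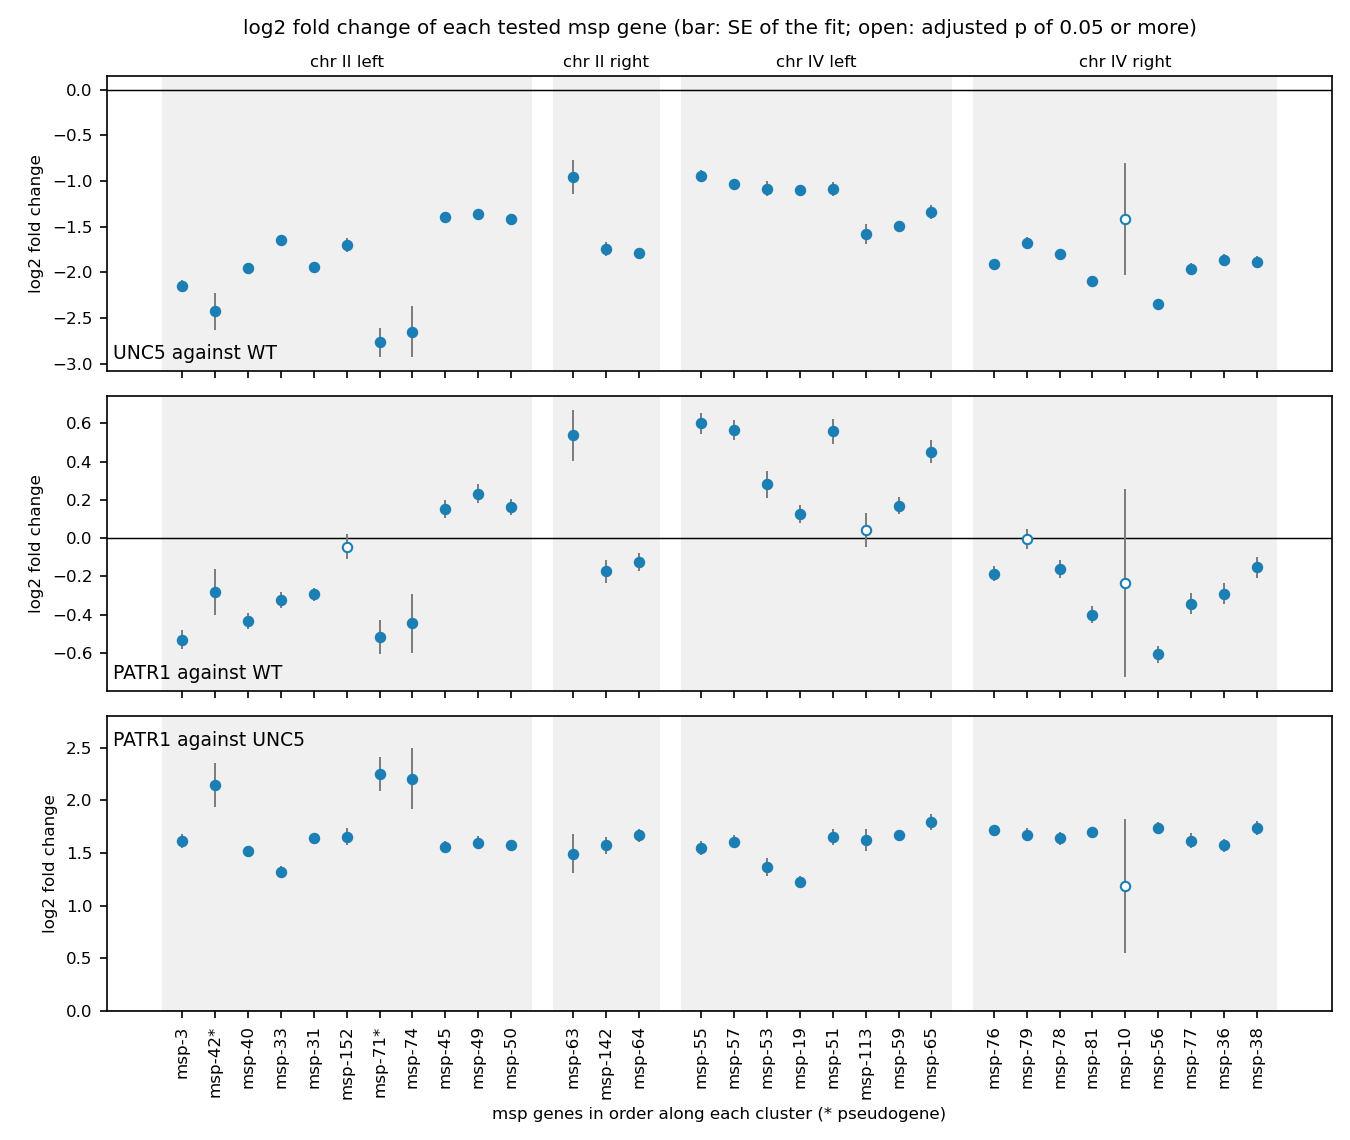
log2 fold change of each of the 31 tested msp genes in the 3 comparisons, with the SE of the fit as bars and open points for an adjusted p of 0.05 or more, in order along the 4 clusters; the vertical axes differ between panels. UNC5 against WT lies between -2.77 and -0.95 and PATR1 against WT between -0.61 and 0.60, with the left cluster of chromosome IV highest in both on the median, and PATR1 against UNC5 lies near 1.62 in most genes.

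Compared directly, PATR1 was higher than UNC5 in 30 of the 31 genes at an adjusted p below 0.05, all 30 by more than 2-fold, and lower in none. Of all tested genes 37.8% were higher in PATR1, 9.46% by more than 2-fold, and 40.9% were lower. At an unadjusted p below 0.05 the counts were 30 higher and 0 lower, and DESeq2 gave 31 and 0. No gene had overlapping libraries, where 38.3% of all tested genes were higher and 41.3% lower without overlap. The median was 1.62, beside -0.04 for all tested genes.

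This difference was nearly the same size from copy to copy. The middle 50% of the members, between the quartiles, lay between 1.56 and 1.68, an interquartile range of 0.12, where it was 0.56 in UNC5 against WT, 0.47 in PATR1 against WT and 0.90 over all tested genes between PATR1 and UNC5. msp-59 was 3.18-fold higher in PATR1 than in UNC5, msp-31 3.13-fold, msp-55 2.93-fold and msp-56 3.34-fold, although these genes had changed by unequal amounts against WT. msp-19 had the smallest difference among the genes that passed (2.34-fold, 1.23 ± 0.057, adjusted p = 1.4e-18). Above the rest stood the low-level msp-71 (4.76-fold, 2.25 ± 0.16), msp-74 (4.65-fold, 2.21 ± 0.29) and msp-42 (4.47-fold, 2.15 ± 0.21).

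The 4 clusters differed in how far their members changed against WT. This grouping was made after the values were seen and is a description, and the comparisons with WT share the WT libraries. In UNC5 the 8 tested members of the left cluster of chromosome IV had a median of -1.10, from -1.58 to -0.95. The 9 of the right cluster of chromosome IV had a median of -1.89, from -2.35 to -1.42, and the 11 of the left cluster of chromosome II a median of -1.94, from -2.77 to -1.36. The 3 genes of the right cluster of chromosome II lay at -1.79, -1.74 and -0.96. Members of the left cluster of chromosome IV were thus the least reduced on the median, with some overlap of the ranges. In PATR1 the medians were 0.37, -0.24, -0.30 and -0.13 in the same order, and no tested member of the left cluster of chromosome IV fell and none of the right cluster rose.

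The make-up of the msp pool shifted accordingly. The left cluster of chromosome IV supplied 23.4%, 23.5% and 23.4% of the summed msp level in the WT libraries, 32.2%, 31.3% and 30.9% in UNC5 and 31.2%, 31.2% and 29.7% in PATR1. Its share was higher in every library of both mutant groups than in any WT library, while the UNC5 and PATR1 libraries overlapped. The right cluster of chromosome IV supplied 41.4% ± 0.739 (SD, n = 3) in WT, 34.9% ± 0.483 in UNC5 and 36.2% ± 0.158 in PATR1. The left cluster of chromosome II supplied 30.5% to 31.6% in WT, 29.02% to 30.3% in UNC5 and 28.5% to 29.9% in PATR1, and the right cluster of chromosome II stayed between 3.79% and 4.40% in all 9 libraries. Within the left cluster of chromosome II, the tested genes from msp-3 to msp-31 fell in both mutant groups and msp-45, msp-49 and msp-50, 3 genes at its other end, fell by 1.36 to 1.42 in UNC5 and rose in PATR1.

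msp-10 (WBGene00003425, chromosome IV, 9837649 to 9838032, plus strand), which lies between msp-81 and msp-56, varied within groups as no other member did. It had 4.03, 12.4 and 11.96 CPM in WT, against 3.67, 3.76 and 3.26 CPM in UNC5, and it had 9.05, 3.87 and 10.6 CPM in PATR1. WT replicate 1 and PATR1 replicate 2 thus stood at about the UNC5 level, with the other WT and PATR1 libraries about 3 times higher. Its biological coefficient of variation was 43.3%, as against 2.73% to 7.73% in the other 30 genes. The fall in UNC5 did not pass (-1.42 ± 0.61, adjusted p = 0.064), but did without WT replicate 1 (-1.78, adjusted p = 0.0086) and with DESeq2 (-1.51, adjusted p = 0.0066). The neighbouring msp-81 and msp-56 showed no such split among the same libraries.

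The 4 members that were not tested had counts at or near 0. msp-32, a coding gene, and the pseudogene msp-37 had no count in any library. As reads that match several loci are not counted, a count of 0 does not show that a copy is silent, and this was not tested. msp-58, a coding gene of 234 bases, had 2 counts in WT replicate 3 and none elsewhere, and the pseudogene msp-52 had 2 to 5 counts in each library. Of the 35 members 5 overlap another gene. msp-31 shares its strand with aagr-2, msp-45 with srb-13 and the untested msp-37 with dhs-12, while msp-33 lies opposite gst-9 and msp-38 opposite dhs-12. Counts were read by strand, and reads on the opposite strand of all msp genes together came to 28 to 69 per library, against 14513 to 74227 on their own strand. Strand does not separate the pairs that share a strand, and whether msp-31 and msp-45 lost reads this way was not tested.

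The counts of the other gene lists are to be read against all tested genes, of which 27% fell and 49.8% rose in UNC5, 13.7% and 7.09% by more than 2-fold. In PATR1 44.9% of all tested genes fell and 38.7% rose, 10.5% and 6.02% by more than 2-fold. Genes that pack MSP or act in sperm movement mostly fell in both groups. Of 10 tested genes of this list 9 fell in UNC5, all more than 2-fold, and 9 fell in PATR1, none more than 2-fold, with medians of -2.06 and -0.61. spe-18, which is needed for the assembly of MSP into fibrous bodies, had 105, 105 and 98.1 CPM in WT, against 18.1, 18.1 and 18.9 CPM in UNC5, and it had 55.8, 61.5 and 58.1 CPM in PATR1 (-2.48 ± 0.045, adjusted p = 1.3e-30, and -0.81 ± 0.038, adjusted p = 4.3e-19). The sperm phosphatase gene gsp-3 went from 66.9 ± 2.12 CPM to 13.2 ± 0.664 and 45.6 ± 1.3 CPM, and its paralog gsp-4 fell by 2.33 and 0.81 on the log2 scale. spe-6, a kinase gene required for fibrous bodies, fell by 1.52 and 0.38. It was picked after its values were seen, as were fog-3, elt-1, fog-1, gsa-1, acy-4, kin-1, ceh-18 and goa-1 further on. Only spe-39, which encodes a trafficking protein that also acts outside sperm, rose, by 0.26 ± 0.037 in UNC5 and 0.62 ± 0.036 in PATR1.

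In the list of other sperm genes, 38 of 40 tested genes fell in UNC5 and 2 rose, and 29 fell and 3 rose in PATR1, with medians of -1.97 and -0.44. ssq-2, a sperm-specific gene, went from 132 ± 4.13 CPM in WT to 28.1 ± 1.84 CPM in UNC5 and 105 ± 0.741 CPM in PATR1, and fer-1, needed for membrane fusion in sperm activation, from 22.1 ± 0.203 to 4.04 ± 0.0828 and 12.3 ± 0.477 CPM. spe-49 fell by 3.04 ± 0.13 and 1.11 ± 0.083. The msp medians were -1.70 and -0.15 beside these, and the difference between the lists was not tested. zipt-7.1, a zinc transporter gene acting in sperm activation, rose in both groups, from 37.9 ± 0.846 CPM to 93.0 ± 1.29 and 86.1 ± 0.478 CPM.

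**Figure D4:**
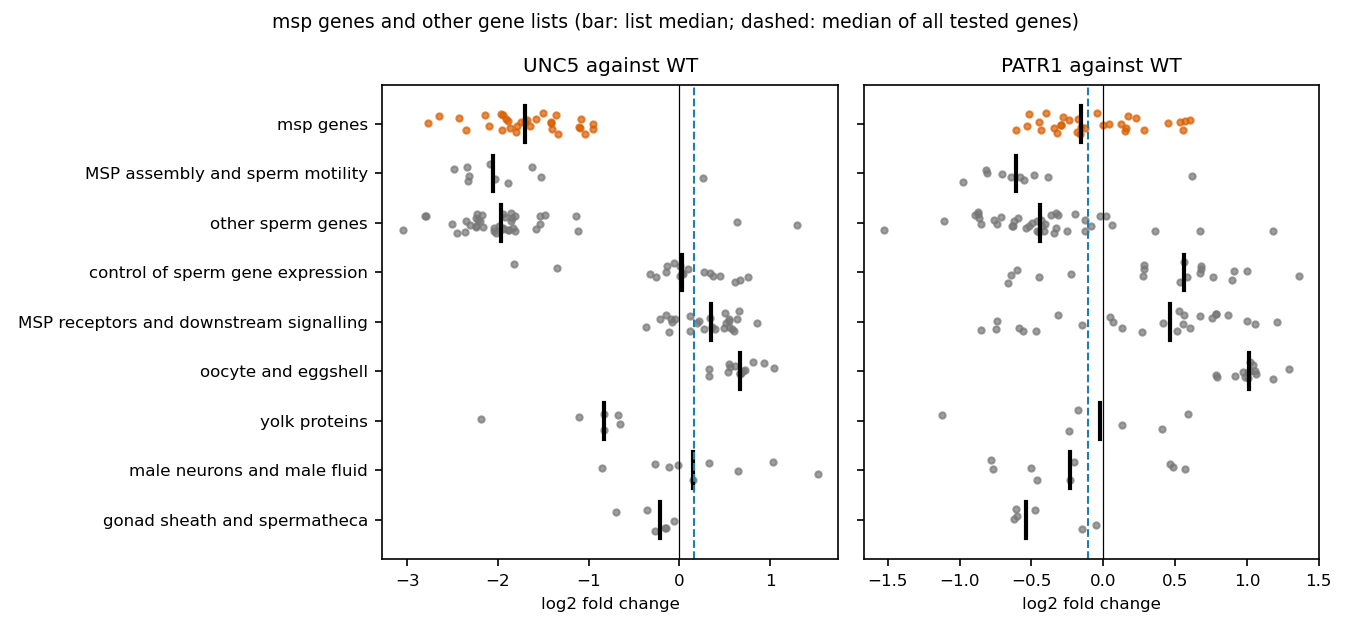
log2 fold change against WT of the tested msp genes (orange) and of the tested genes of 8 other lists (grey), with 1 point per gene, the list median as a black bar and the median of all tested genes as a dashed line. The 3 sperm lists have the lowest medians in UNC5, from -2.06 to -1.70, and oocyte and eggshell genes the highest medians in both groups, 0.66 and 1.02.

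Among genes that control the choice of sperm or oocyte fate and sperm transcription, 6 of 19 tested genes fell and 8 rose in UNC5 (median 0.03), shares near the 27% and 49.8% of all tested genes. In PATR1 5 fell and 14 rose (median 0.56), beside 44.9% and 38.7% of all tested genes. Rises in both groups included gld-3, by 0.45 ± 0.033 in UNC5 and 0.91 ± 0.033 in PATR1. rnp-8 rose by 0.27 ± 0.033 and 0.90 ± 0.032, and fem-2 by 0.34 ± 0.036 and 0.68 ± 0.035. The genes that fell, of which several follow, were the smaller part of this list. spe-44, a transcription regulator of sperm genes, had 31.1, 31.9 and 30.5 CPM in WT, against 12.3, 12.04 and 12.4 CPM in UNC5, and it had 20.04, 19.6 and 21.8 CPM in PATR1 (-1.34 ± 0.051, adjusted p = 1.4e-21, and -0.60 ± 0.046, adjusted p = 1.5e-13). Its order of the 3 groups was that of the msp sum, an order that unc-5 also had. htas-1, a sperm histone gene, fell by 1.82 and 0.67, and fog-3, required for sperm fate, by 0.25 and 0.64. elt-1, a GATA factor gene that binds msp promoters, fell by 0.14 ± 0.053 (adjusted p = 0.015) and 0.44 ± 0.054 (adjusted p = 6.6e-09). Unlike spe-44 and htas-1, fog-3 and elt-1 were thus lowest in PATR1. Sperm-promoting fem-3 and fog-1 went the other way, with fem-3 at 28.2 ± 0.424 CPM in WT, against 47.7 ± 1.29 CPM in UNC5, and it had 72.4 ± 1.29 CPM in PATR1, and fog-1 higher by 0.66 ± 0.053 and 0.77 ± 0.052.

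Of 26 tested genes for the receipt of the MSP signal, 19 rose and 5 fell in UNC5 (median 0.35), where 49.8% of all tested genes rose. In PATR1 16 rose and 8 fell (median 0.46), where 38.7% of all tested genes rose. The receptor gene vab-1 had 91.0, 93.6 and 93.9 CPM in WT, against 136, 137 and 133 CPM in UNC5, and it had 145, 148 and 149.7 CPM in PATR1 (0.55 ± 0.03, adjusted p = 6.1e-17, and 0.67 ± 0.03, adjusted p = 2.0e-19). inx-14 and inx-22, gap junction genes through which sheath cells restrain oocytes, rose by 0.63 ± 0.037 and 0.66 ± 0.036 in UNC5 and by 1.05 ± 0.037 and 1.00 ± 0.036 in PATR1. The oocyte maturation factor gene oma-2 went from 133 ± 2.2 CPM to 240 ± 5.35 and 307 ± 7.1 CPM. On the sheath side, gsa-1, a G protein gene, fell by 0.37 ± 0.07 and 0.85 ± 0.072, and the adenylyl cyclase gene acy-4 by 0.15 ± 0.052 and 0.32 ± 0.053. In the same list kin-1 (-0.04, adjusted p = 0.27) and ceh-18 (-0.08, adjusted p = 0.089) did not pass in UNC5. In PATR1 kin-1 and ceh-18 fell by 0.74 and 0.75. By contrast, goa-1 rose by 0.12 in UNC5 and 0.13 in PATR1.

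Markers of oocytes, yolk, the gonad sheath and males moved in different directions. All 14 oocyte and eggshell genes rose in both groups (medians 0.66 and 1.02), and the range of their summed level was 4485 to 4639 CPM in WT, 6834 to 6969 CPM in UNC5 and 8871 to 9012 CPM in PATR1. The yolk receptor gene rme-2, for example, had a mean of 312 CPM in WT, against 509 CPM in UNC5, and it had 628 CPM in PATR1. The 6 yolk protein genes all fell in UNC5 (median -0.83), and 3 fell and 3 rose in PATR1. Of 6 gonad sheath and spermatheca genes 5 fell in UNC5 and 4 in PATR1, none more than 2-fold, with summed levels of 815 to 846, 778 to 795 and 759 to 794 CPM. Every gene of these 3 lists had counts in every library. Of 9 tested genes of male neurons and male seminal fluid, 1 fell and 3 rose in UNC5 and 4 fell and 2 rose in PATR1, the latter shares near or below the 44.9% and 38.7% of all tested genes, with summed levels of 20.5 to 22.4, 43.3 to 47.8 and 16.9 to 17.8 CPM. Most of that sum came from swm-1, a protease inhibitor gene of seminal fluid, at 12.5 CPM in WT, against 36.1 CPM in UNC5, and it had 10.7 CPM in PATR1, and the male neuron genes lov-1, cwp-1, cwp-2, cwp-3 and trf-1 were too low to be tested. The part of these markers in the msp differences was not tested.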

How the data were processed

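RNA was measured in 9 libraries, 3 per genotype label. The authors deposited raw read counts per gene from STAR 2.7.11b on WBcel235, after cutadapt 3.5 and FastQC 0.11.9, per the submitters' processing notes; the design text names the build WS288. Poly(A) selection and the Watchmaker kit are given per the labels' protocols. Read length is not given in the sources used here. Of the deposited count columns, the reverse-strand one was used, which held 41.9 to 57.1 times the reads of the other strand. Rows that name no gene were left out: in all libraries 3.12% to 4.96% of reads had several loci, 0.621% to 6.02% none, 0.582% to 1.32% no gene and 1.07% to 1.23% more than 1 gene.

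Names and positions came from the Ensembl annotation of WBcel235, and for the 4 pseudogenes from RefSeq entries at the same position. All 9 libraries were fitted together with edgeR 4.0.16 (R 4.3.3): its filter on low counts, TMM factors (0.954 to 1.045), a robust quasi-likelihood test, and Benjamini-Hochberg adjustment over all 17512 tested genes. All adjusted p-values come from this fit unless DESeq2 1.42.0 is named. A gene rose or fell at an adjusted p below 0.05, and the 2-fold limit is an absolute log2 fold change over 1. The method was also run on simulated counts drawn from the fitted model, in which few genes changed and as many rose as fell. Far more genes changed in these data, so that run does not test the scaling used here.

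The members and the 8 other gene lists (143 genes) were chosen with earlier results of these data known. Of the list symbols 5 had no usable ID and were left out, 2 of them because they belong to several IDs. Named are the 6 members of highest level, the 3 largest and 2 smallest changes per comparison, members that do not pass or go against the median, the 4 untested ones, and up to 4 genes per list of smallest adjusted p. Alternatives were other scaling factors, filters, DESeq2, unstranded counts, fewer libraries and a replicate block. Sequence comparisons between the copies were not run.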

Additional observations from a re-analysis of the deposited data

Results flagged for a closer look

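Reads outside the gene counts differed between the groups. Reads with no place in the genome averaged 0.783% of all reads in UNC5 and 4.1% in PATR1, where the WT libraries had 0.621% to 0.629%. Reads in no annotated gene averaged 1.22% in UNC5 and 0.72% in PATR1, where the WT libraries had 0.582% to 0.647%. All of these mutant libraries lay above all WT libraries. Whether such reads bear on the msp levels was not tested.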

How the results depend on the processing

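The msp genes stayed lower in UNC5 than in WT and in PATR1 under every alternative run. The UNC5 median log2 fold change was -1.80 with DESeq2, -1.74 with at least 5 CPM in 3 libraries, -1.75 with library sizes alone, -1.87 with no filter, -1.849 with the 6 libraries compared and -1.80 with relative log expression factors, and -1.75 to -1.69 with single libraries left out. For PATR1 against UNC5 it was 1.67, 1.57, 1.55 and 1.77 under the first 4 and 1.67 with relative log expression factors. For PATR1 against WT it was -0.21 with DESeq2, -0.24 with 5 CPM, -0.28 with library sizes alone and -0.21 with relative log expression factors, and -0.15 to -0.12 with single libraries left out. The genes that rose in PATR1 were 6 with 5 CPM, where msp-63 was not among the 27 members tested and msp-19, msp-45, msp-50 and msp-59 did not pass, and 7 with library sizes alone. The sign of msp-113 in PATR1 turned with DESeq2 (-0.009), 5 CPM (-0.0713), library sizes alone (-0.0818) and relative log expression factors (-0.0131). With single libraries left out it ran from -0.0259 to 0.135, msp-10 from -0.604 to 0.0596, msp-152 from -0.13 to 0.0269 and msp-79 from -0.0567 to 0.0601. The causes were not tested. With the replicate block 30 genes fell in UNC5 (median -1.70), and 16 fell and 11 rose in PATR1. The deviations of same-numbered libraries correlated at -0.049 to 0.046 and those of differently numbered ones at -0.051 to 0.068. No pairing by number was thus visible, which does not exclude that libraries were grown or prepared in sets. Depth limits msp-63, msp-74, msp-42 and msp-71, of which the last had 24 to 30 and msp-42 14 to 24 counts per UNC5 library.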

Other observations

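Other genes between the msp copies were counted by span, beside all tested genes, of which 27% fell and 49.8% rose in UNC5 and 44.9% fell and 38.7% rose in PATR1. Within the span of the left cluster of chromosome IV, 35 of 53 other tested genes fell and 17 rose in UNC5 (median -1.76), and 33 fell and 14 rose in PATR1 (median -0.46). The 8 tested msp genes of that span had medians of -1.10 and 0.37. The 4 other genes in the span of the right cluster of chromosome II all fell in both groups (medians -1.65 and -0.60). In the span of the left cluster of chromosome II, 38 of 102 other genes fell and 51 rose in UNC5 (median 0.15), and 42 fell and 47 rose in PATR1 (median -0.01). In that of the right cluster of chromosome IV, 57 of 123 fell and 52 rose in UNC5 (median -0.02), and 77 fell and 33 rose in PATR1 (median -0.40). Only msp genes were left out, so sperm genes of the lists above are among these other genes. Examples are nspd-3 and nspd-6 in the left span of chromosome IV and ssq-1 and ssp-10 in its right span. In the left span of chromosome II, nspd-4 and nspd-5 are examples. These counts were made after the values were seen, and no test between spans was run.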
